A study of Capra hircus with 9 samples.

Results

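The 9 genes described here carry immunoglobulin into milk or mark the B cell lineage that makes it. They are PIGR, FCGRT, JCHAIN, MZB1, CD79A, CD79B, POU2AF1, TNFRSF17 and MS4A1, and they were picked by gene symbol from the 23499 genes of the deposited expression table. All 9 were found. RNA of mammary gland tissue was sequenced with 1 library from each of 9 healthy goats of the Laoshan dairy breed. Of these goats, 3 were in late lactation (LL, 240 days postpartum), 3 in the dry period (DP, 300 days postpartum) and 3 in late gestation (LG, 140 days after mating). All goats were in the third parity and about 4 years old, and came from a single farm with the same feed and care. The tissue was taken at slaughter. The labels name no treatment or genetic change. The comparison of the stages bears on how the gland is equipped for immunoglobulin transfer while milk is still made, after milking has ended, and shortly before birth, when colostrum forms.

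Colostrum is the main source of maternal antibody for a newborn kid, because the ruminant placenta lets almost no immunoglobulin through. Antibody reaches the secretion by separate routes. IgG is taken from the blood and passed through the mammary epithelium, a transfer in which the neonatal Fc receptor, made of FCGRT and B2M, has been studied. Dimeric IgA is made by plasma cells lying beside the epithelium, is held together by the joining chain JCHAIN, and is carried across the epithelial cell by the polymeric immunoglobulin receptor PIGR. B cells become plasma cells, and on the way they lose the surface protein MS4A1 and gain secretory proteins such as MZB1.

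The deposited table names no unit. Its values were read as FPKM, read fragments scaled to the length of the transcript and to the size of the library. On that reading, levels of different genes can be set side by side per length. The sum of FPKM ranged from 940676 to 1157015 in the LL libraries, from 601250 to 616268 in the DP libraries and from 733277 to 768157 in LG. The LL sums held very high values of a few milk protein genes, of which CSN2 is given below. Values were therefore divided by a median-ratio factor per library and are called scaled FPKM below. The factors (0.498 to 0.605 in the LL libraries, 1.44 to 1.53 in the DP libraries and 1.20 to 1.31 for LG) align the median gene across libraries and not the sums. A gene was called when its Benjamini-Hochberg adjusted p in limma was under 0.05 and its log2 fold change was at least 1 in size. CSN2, the gene of beta-casein, a main milk protein, had 137800 to 196700 scaled FPKM in the LL libraries, 12.2 to 33.2 in the DP libraries and 3216 to 4900 in LG. CSN1S1, CSN1S2 and CSN3 share nearly the same values in LL and LG and are no separate measurements there. The epithelial genes EPCAM and KRT18 were present in every library, at 21.6 to 67.3 and 10.3 to 33.6 scaled FPKM. The number of reads behind each value is not held by the table, and no counting error was computed.

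PIGR, JCHAIN and MZB1 were lower in LG than in LL, and FCGRT was higher. PIGR and JCHAIN were the called genes in DP against LL. From DP to LG, PIGR rose again while JCHAIN and MZB1 fell. Of the 9 genes, 5 (PIGR, FCGRT, JCHAIN, MZB1 and POU2AF1) reached 0.5 FPKM in at least 3 libraries and were tested, and CD79A, CD79B, TNFRSF17 and MS4A1 did not. POU2AF1 reached that level only in the 3 DP libraries and 1 LG library, so it was tested because of the stage where it is high. The counts and medians over the 5 genes are therefore a description. In DP against LL, 0 of the 5 were called higher, against 13.8% of the 14701 genes tested, and 2 were called lower, against 8.79%. In LG against LL, 1 was called higher (10.7% of all genes) and 3 lower (6.61%). In LG against DP, 1 was called higher (6.37% of all genes) and 2 lower (6.88%). The median log2 fold change of the 5 was -0.77, -2.60 and -1.19 in these comparisons, beside 0.00, 0.02 and 0.01 over all genes tested. The -1.19 is the value of POU2AF1 itself. With the filter at 2 FPKM, which left out POU2AF1, the medians of the 4 remaining genes were -1.57, -3.26 and -0.76. Over all 13181 genes of that fit they were -0.02, 0.03 and 0.03. Without scaling the split in DP against LL was 2 higher (FCGRT and POU2AF1) and 1 lower (PIGR), with quantile normalization it was 1 and 1, and in LG against DP without scaling it was 1 and 3. Over all 14701 genes tested, the split without scaling was 7979 higher and 369 lower in DP against LL. It was 6698 and 345 in LG against LL, and 715 and 1577 in LG against DP. The 3 comparisons share libraries and are not independent of each other.

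**Figure D1:**
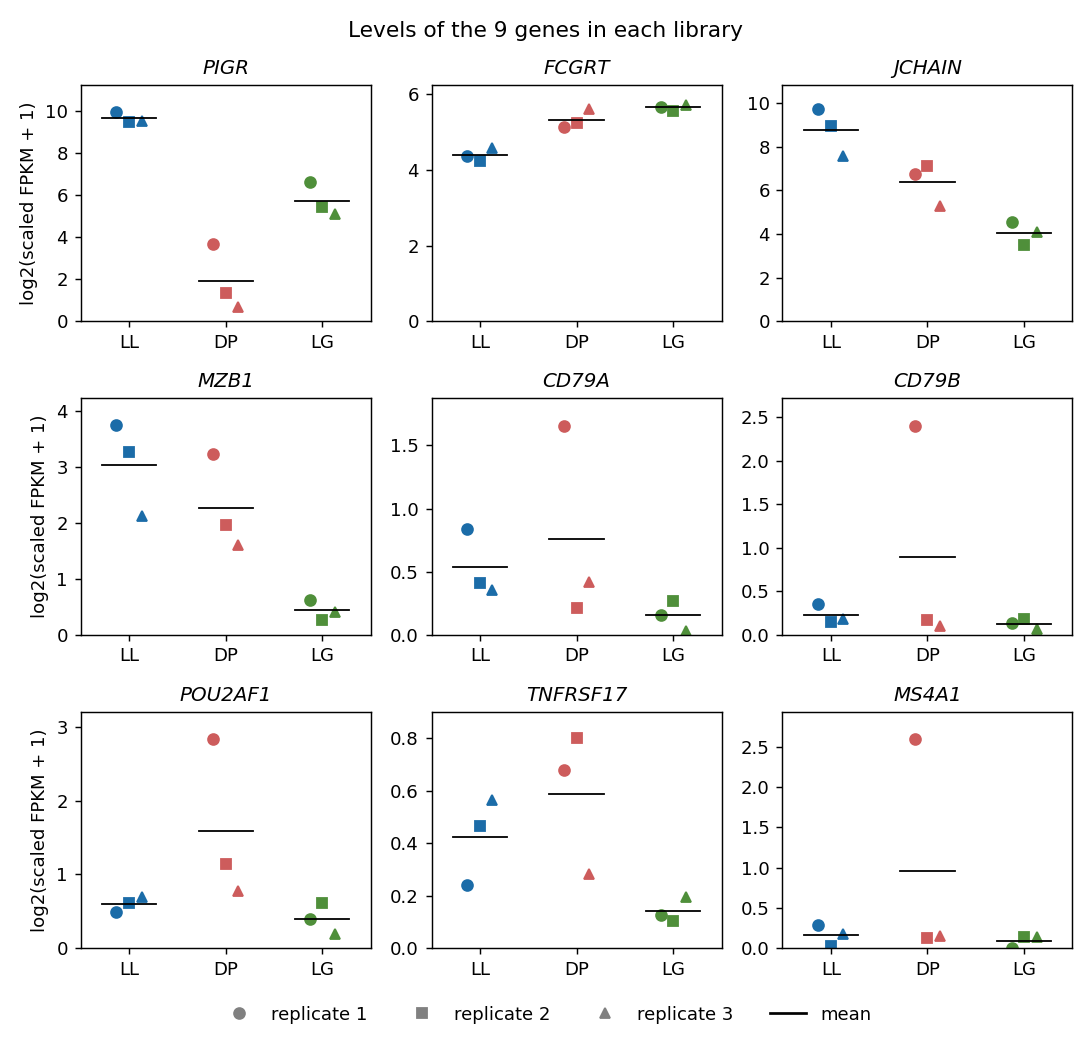
Level of each of the 9 genes in each library, as log2(scaled FPKM + 1), by stage (LL, DP and LG, 3 libraries each). Symbols mark the replicate number, which names a goat within a stage and does not link goats across stages, and horizontal lines mark the stage means. PIGR is lowest in DP, JCHAIN and MZB1 are lowest in LG, FCGRT is lowest in LL, and replicate 1 stands above the other DP libraries in CD79A, CD79B, POU2AF1 and MS4A1.

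PIGR, the receptor that carries dimeric IgA across the epithelium, lies on chromosome 16 from 4079229 to 4097210 on the minus strand (gene ID 102176714, coordinates as in the deposited table, which names no genome build). It had 988, 720 and 737 scaled FPKM in the LL libraries, 12.0, 1.55 and 0.632 in DP and 97.9, 42.6 and 34.0 in LG. The 3 stages did not overlap. By rank among the 23499 genes, PIGR was 54th, 89th and 73rd in the LL libraries, 2628th, 12636th and 14237th in DP and 316th, 660th and 935th in LG. It was among the most abundant transcripts of the milking gland, far down the order in DP and part of the way back up in LG.

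The mean of PIGR was 815 ± 150 scaled FPKM in the LL libraries, 4.73 ± 6.32 in the DP libraries and 58.2 ± 34.7 in LG (SD, n = 3 each). Between LL and DP it fell by 7.74 on the log2 scale (95% interval -9.25 to -6.23, limma adjusted p = 1.94e-05). Between LL and LG it fell by 3.92 (-5.44 to -2.41, limma adjusted p = 0.00131). From DP to LG it rose by 3.82 (2.30 to 5.33, limma adjusted p = 0.00235). These fold changes are on the log2(scaled FPKM + 1) scale, which understates the change of low genes. The mean in LG was 12.3 times that in DP and 0.0714 of that in LL. Scaling did not set these directions, since the deposited FPKM of PIGR (398 to 492 in the LL libraries, 0.91 to 18.4 in the DP libraries and 44.7 to 117 in LG) did not overlap between stages either.

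In bulk tissue, fewer cells of a type and less RNA per cell cannot be told apart. PIGR was therefore also set against the epithelial genes of the same library, the mean log2 level of KRT8, KRT18, KRT19, EPCAM and CDH1. This log2 ratio was 4.25, 3.75 and 3.92 in the LL libraries, -1.65, -4.66 and -4.55 in the DP libraries and 1.12, -0.01 and -0.50 in LG. The stage means were 3.97 ± 0.25, -3.62 ± 1.71 and 0.21 ± 0.83 (SD, n = 3 each), so PIGR kept the same order of stages beside these markers. The differences were -7.59 (DP against LL), -3.76 (LG against LL) and 3.83 (LG against DP), each with p = 0.1 in a two-sided exact permutation test, the smallest that 3 against 3 libraries allow, and 0.15 after adjustment over the 15 ratio tests made. Among the other epithelial genes, ELF5, a transcription factor of the secretory cells, was the only one of 8 listed called in DP against LL, at -4.19 (limma adjusted p = 3.13e-06). The shares of all genes called there were 8.79% lower and 13.8% higher. Without scaling 5 of the 8 were called there (4 higher, 1 lower), beside 7979 higher and 369 lower of all 14701 genes tested. Quantile normalization called 3 (2 higher, 1 lower). ELF5 was not part of the epithelial mean. It had 440 to 676 scaled FPKM in the LL libraries, 25.8 to 44.2 in DP and 408.5 to 498 in LG. ELF5 was thus lowest in DP, as PIGR was, and PIGR was not set against it.

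FCGRT, the heavy chain of the neonatal Fc receptor, which binds IgG, lies on chromosome 18 from 56970694 to 56976950 on the plus strand (gene ID 102170724). It had 19.7, 17.8 and 22.7 scaled FPKM in the LL libraries, 34.1, 36.5 and 47.4 in the DP libraries and 49.7, 46.1 and 50.9 in LG. LL lay below both other stages in every library, and DP and LG overlapped. The means were 20.1 ± 2.49, 39.4 ± 7.10 and 48.9 ± 2.49 (SD, n = 3 each). Compared with LL, FCGRT rose by 1.25 on the log2 scale in LG (0.88 to 1.62, limma adjusted p = 0.000279). DP differed from LL by 0.93 (0.56 to 1.30, limma adjusted p = 0.0012), under the size required for a call. It was past that size at 1.02 without DP replicate 1 or without LL replicate 3. LG and DP differed by 0.32 (-0.05 to 0.69, limma adjusted p = 0.16), which did not pass the test.

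FCGRT works as a pair with B2M, the light chain it shares with the class I histocompatibility proteins. B2M had 2953, 2627 and 2314 scaled FPKM in the LL libraries, 1534, 1028 and 913 in the DP libraries and 1694, 1561 and 1214 in LG, far above FCGRT in each library. It fell by 1.21 in DP against LL (limma adjusted p = 0.00166), and in LG against LL its log2 fold change was -0.83 (limma adjusted p = 0.0129), under the size required. The fall in DP depends on the scaling, since B2M was at 0.20 without it (limma adjusted p = 0.389). Quantile normalization gave 4.07, a size that the deposited FPKM do not show (1401 to 1470 in LL and 1314 to 2344 in DP). The log2 ratio of FCGRT to B2M was -6.97 ± 0.31 in the LL libraries, -4.82 ± 0.61 in the DP libraries and -4.89 ± 0.29 in LG (SD, n = 3 each). LL lay below DP by 2.14 and below LG by 2.08 with no overlap (two-sided exact permutation p = 0.1 each, adjusted 0.15). DP and LG differed by -0.07 (exact permutation p = 1, adjusted 1).

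**Figure D2:**
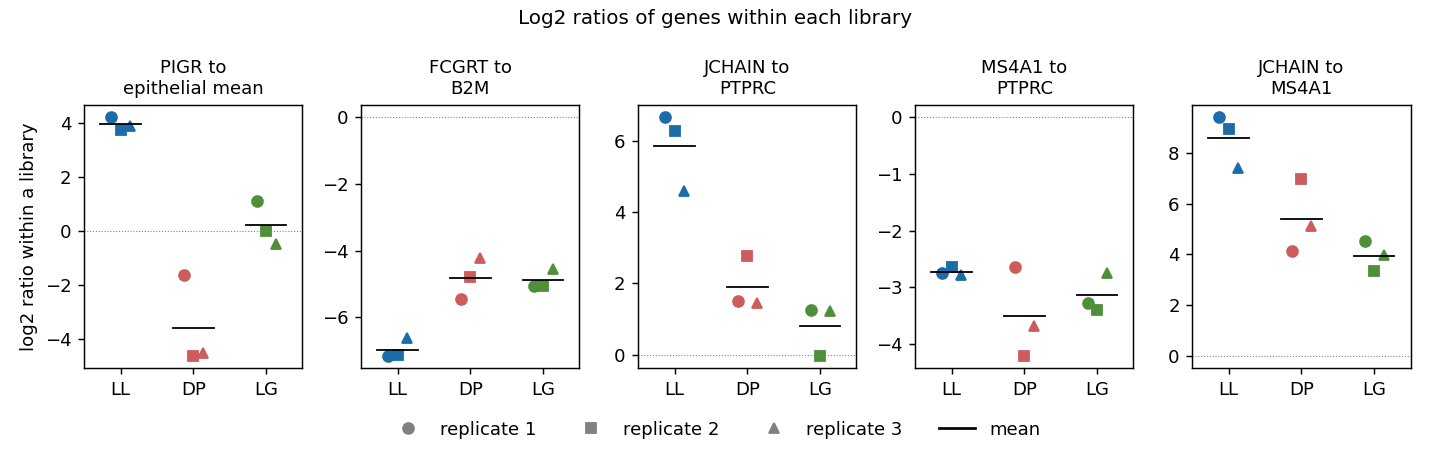
Log2 ratios of genes within each library, which do not depend on the scaling between libraries apart from the pseudocount of 1. Each point is a library, symbols mark the replicate number within a stage, and horizontal lines are stage means. PIGR beside the epithelial mean is lowest in DP, FCGRT beside B2M is lowest in LL, and JCHAIN beside PTPRC or MS4A1 is highest in LL.

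Other genes of the transport route were read from a list of 16 partners, of which 14 were in the table and 13 were tested. These move vesicles through the epithelial cell, sort receptors to its sides or bind immunoglobulin. In DP against LL, 0 of 13 were called higher and 5 lower, against 13.8% and 8.79% of all genes tested. The median log2 fold change was -0.73. The 5 were RAB3D (-1.97), RAB25 (-1.42), AP1M2 (-1.31), B2M (-1.21) and RAB5A (-1.05). Without scaling, the split in DP against LL was 4 higher and 0 lower, beside 7979 and 369 of all 14701 genes tested. In LG against LL it was 6 higher and 0 lower without scaling, beside 6698 and 345. RAB3D, RAB25 and AP1M2 in DP against LL were at -0.64, -0.13 and -0.04 without scaling, none called. Quantile normalization gave 1 higher and 3 lower in DP against LL and 2 higher and 1 lower in LG against DP. RAB25, a GTPase of recycling vesicles in epithelia, had 23.5, 17.7 and 16.3 scaled FPKM in the LL libraries, 9.11, 7.94 and 3.60 in the DP libraries and 22.1, 23.2 and 20.2 in LG. In LG against DP it rose by 1.61 (limma adjusted p = 0.00188), and AP1M2, an adaptor subunit for basolateral sorting, rose by 1.51 (limma adjusted p = 0.000193). They were the 2 of 13 called there, beside 6.37% of all genes called higher and 6.88% lower, with a median of 0.46 over the list. Between LL and LG 1 of 13 was called, RAB3D, at -1.29 and at -0.17 without scaling, with a median of -0.19 over the list. The shares of all genes called there were 6.61% lower and 10.7% higher. RAB11A, a GTPase of recycling endosomes, had log2 fold changes of -0.67, -0.20 and 0.47 in the order DP over LL, LG over LL and LG over DP, none of the size required.

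JCHAIN, the joining chain of dimeric IgA and pentameric IgM, lies on chromosome 6 from 86551095 to 86560860 on the minus strand (gene ID 102172880). It had 832, 491 and 189 scaled FPKM in the LL libraries, 106, 135 and 37.6 in the DP libraries and 22.3, 10.1 and 16.1 in LG. The stages did not overlap on this scale, and the LL libraries spread over a wide range. JCHAIN ranked 68th to 220th of all genes in the LL libraries, 193rd to 703rd in the DP libraries and 1458th to 3681st in LG, so it stayed among the abundant transcripts in LL and DP. Its means were 504 ± 322, 92.9 ± 50.1 and 16.2 ± 6.08 (SD, n = 3 each).

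Compared with LL, JCHAIN fell by 4.70 on the log2 scale in LG (-6.02 to -3.38, limma adjusted p = 0.000216) and by 2.33 compared with DP (-3.65 to -1.01, limma adjusted p = 0.0136). Its mean in LG was 0.0321 of that in LL and 0.174 of that in DP. Between LL and DP it fell by 2.37 (-3.69 to -1.05, limma adjusted p = 0.00749). That last call rests on the scaling. In the deposited FPKM, JCHAIN was 414, 272 and 114 in LL and 161, 195 and 54.1 in DP, which overlap, and the log2 fold change was -0.96 without scaling (limma adjusted p = 0.12) and -1.59 with quantile normalization (limma adjusted p = 0.0658). Without scaling, the median of all genes moved by 1.09 (DP against LL), 0.93 (LG against LL) and -0.18 (LG against DP).

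JCHAIN lies 339719 bases from CSN3, one of the casein genes with shared values. Some closer neighbours, AMBN, ENAM, UTP3 and RUFY3, had the same order among the LL libraries as JCHAIN, highest in replicate 1 and lowest in replicate 3. ENAM, an enamel protein gene 8318 bases away on the opposite strand, was listed at 32.6, 9.13 and 0.07 FPKM as deposited in LL and at no more than 0.41 elsewhere. RUFY3, on the other side, had 77.6, 25.0 and 3.51 in LL and 8.54 to 12.6 elsewhere. JCHAIN did not share its values with a neighbour by the linkage criterion, since the smallest residual from a straight line was 24.9% of its range where at most 1% was required. The part of these neighbours and of the casein genes in the level of JCHAIN in LL was not tested.

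MZB1, a chaperone of the endoplasmic reticulum that helps plasma cells and marginal zone B cells assemble immunoglobulin, lies on chromosome 7 from 59834329 to 59836445 on the plus strand (gene ID 102169583). It had 12.3, 8.59 and 3.34 scaled FPKM in the LL libraries, 8.34, 2.89 and 2.04 in the DP libraries and 0.543, 0.203 and 0.327 in LG. LG lay below every library of the other stages, and LL and DP overlapped. MZB1 fell by 2.60 in LG against LL (-3.63 to -1.58, limma adjusted p = 0.00147) and by 1.83 in LG against DP (-2.86 to -0.80, limma adjusted p = 0.0129). Between LL and DP the difference was -0.77 (-1.80 to 0.25, limma adjusted p = 0.171) and did not pass the test. It passed without DP replicate 1 (-1.25, limma adjusted p = 0.0268) and without LL replicate 3 (-1.24, limma adjusted p = 0.0364), and it was 0.39 without scaling (limma adjusted p = 0.404).

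TNFRSF17, the receptor BCMA, which plasma cells use to receive survival signals, lies on chromosome 25 from 10555875 to 10559172 on the plus strand (gene ID 102170014). It was low throughout, at 0.181, 0.380 and 0.479 scaled FPKM in the LL libraries, 0.602, 0.742 and 0.215 in the DP libraries and 0.0919, 0.0730 and 0.145 in LG. LG lay below both other stages in every library on this scale, but overlapped LL in the deposited FPKM (0.09 to 0.29 in LL and 0.09 to 0.19 in LG). In a fit without the filter on low values, the log2 fold change in LG against DP was -0.45 (limma adjusted p = 0.0418), under the size required, and the other comparisons of TNFRSF17 had limma adjusted p of 0.344 and 0.139. JCHAIN, MZB1 and TNFRSF17 all had their lowest mean in LG, 16.2, 0.358 and 0.103 scaled FPKM. The scaled means of CD79A, CD79B, POU2AF1 and MS4A1 were lowest in LG too, at 0.114, 0.0919, 0.324 and 0.0654. In the deposited FPKM the means of CD79B, POU2AF1 and MS4A1 were lowest in LL.

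The JCHAIN signal was set against PTPRC, the surface protein CD45 carried by white blood cells in general. PTPRC had 7.19, 5.35 and 6.82 scaled FPKM in the LL libraries, 36.7, 19.2 and 13.2 in the DP libraries and 8.69, 10.5 and 6.41 in LG, and it rose by 1.58 in DP against LL (limma adjusted p = 0.00255). The log2 ratio of JCHAIN to PTPRC was 6.67, 6.28 and 4.60 in the LL libraries, 1.50, 2.76 and 1.44 in the DP libraries and 1.27, -0.05 and 1.21 in LG. The stages did not overlap, with differences of -3.95 between DP and LL, -5.04 between LG and LL and -1.09 between LG and DP (two-sided exact permutation p = 0.1 each, adjusted 0.15). JCHAIN was thus at its highest beside CD45 in the milking gland and at its lowest in late gestation.

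A list of 16 other genes of plasma cells and of antibody secretion was read beside these, of which 15 were tested. In DP against LL, 0 were called higher and 5 lower, against 13.8% and 8.79% of all genes tested, with a median of -0.80. The lowest were SEC11C (-3.44), SSR4 (-2.21), ELL2 (-2.13) and FKBP11 (-1.40). SEC11C, SSR4 and FKBP11 serve protein entry and folding in the endoplasmic reticulum and are used by milk-secreting epithelium too, and ELL2 is an elongation factor that plasma cells use to make secreted immunoglobulin heavy chains. Between LL and LG, 4 were called lower, ELL2 (-2.32), SEC11C (-1.61), DERL3 (-1.11) and FKBP11 (-1.09), and 1 higher, SDC1 (1.04), a proteoglycan that epithelia carry as well as plasma cells. The shares of all genes called there were 6.61% lower and 10.7% higher. The median of the list was -0.67 there, and without LL replicate 1 the 5 calls became 2. In LG against DP, SSR4 (1.89) and SEC11C (1.83) were called higher and none lower, beside 6.37% and 6.88% of all genes tested. The median was 0.22, and these 2 secretory genes moved the opposite way to JCHAIN and MZB1. Without scaling, the list split into 4 higher and 1 lower (SEC11C) in DP against LL and into 3 higher and 1 lower (ELL2) in LG against LL, and quantile normalization gave 0 higher and 3 lower in the latter. All 14701 genes tested split without scaling into 7979 higher and 369 lower in DP against LL and 6698 and 345 in LG against LL.

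None of the regulators of the plasma cell state PRDM1, IRF4 and XBP1 was called in any comparison. PRDM1, the factor BLIMP1 that starts plasma cell differentiation, had 2.71, 3.34 and 2.06 scaled FPKM in the LL libraries, 3.70, 2.51 and 1.54 in the DP libraries and 1.20, 1.34 and 1.22 in LG. Its log2 fold change was -0.71 in LG against LL (limma adjusted p = 0.0202) and -0.62 in LG against DP (limma adjusted p = 0.0457), both under the size required. IRF4, a partner of PRDM1 in that step, had limma adjusted p of 0.943, 0.802 and 0.871 in the 3 comparisons. XBP1, which expands the secretory apparatus in plasma cells and in epithelia, was at 91.7 to 145 in the LL libraries, 52.5 to 79.5 in the DP libraries and 69.1 to 84.8 in LG. CCR10, the receptor by which IgA plasma cells find mucosal tissue, stayed at 0.153 to 0.741 scaled FPKM in every library and was not tested.

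**Figure D3:**
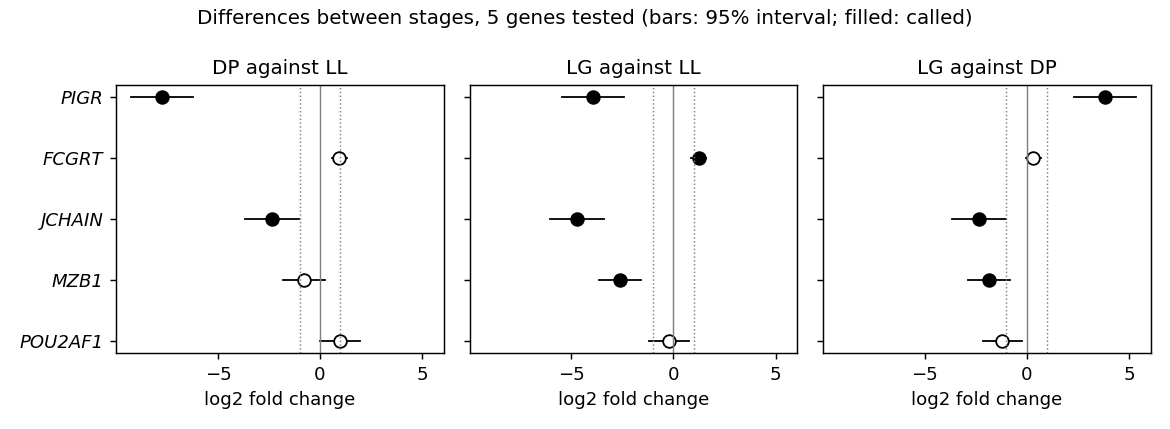
Log2 fold changes of the 5 tested genes in the 3 comparisons, with 95% intervals from limma. Filled points were called and open points were not, and dotted lines mark a log2 fold change of 1 in size. PIGR lies at -7.74, -3.92 and 3.82 from left to right, JCHAIN is below 0 throughout at -2.37, -4.70 and -2.33, and FCGRT is above 0 at 0.93, 1.25 and 0.32.

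MS4A1, CD79A and CD79B, the surface genes of the B cell itself, were below 1 scaled FPKM in 8 of the 9 libraries. MS4A1, the surface protein CD20, lies on chromosome 15 from 236250 to 251536 on the minus strand (gene ID 102172175). It had 0.221, 0.0181 and 0.132 scaled FPKM in LL, 5.03, 0.0902 and 0.111 in DP, and in LG it was listed at 0 in replicate 1 and had 0.0973 and 0.0989 in the others. DP replicate 1 stood far above the other 8 libraries. In the deposited FPKM the DP libraries (7.68, 0.13 and 0.16) lay above all LL libraries (0.11, 0.01 and 0.08).

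CD79A and CD79B are the signalling chains of the B cell antigen receptor. CD79A lies on chromosome 18 from 52244525 to 52248387 on the minus strand (gene ID 102174687), and CD79B on chromosome 19 from 47749206 to 47753177 on the minus strand (gene ID 102177093). CD79A had 0.784, 0.325 and 0.281 scaled FPKM in the LL libraries, 2.15, 0.160 and 0.334 in the DP libraries and 0.117, 0.203 and 0.0228 in LG. CD79B had 0.281, 0.109 and 0.132 in the LL libraries, 4.28, 0.125 and 0.0764 in the DP libraries and 0.1002, 0.130 and 0.0457 in LG. Apart from DP replicate 1 the stages overlapped in both genes, except that CD79A in LG lay below LL on the scaled values and not on the deposited ones.

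POU2AF1, the B cell coactivator OBF-1 that works with octamer-binding factors at immunoglobulin genes, lies on chromosome 15 from 60709079 to 60734673 on the plus strand (gene ID 102169494). It had 0.402, 0.524 and 0.611 scaled FPKM in the LL libraries, 6.18, 1.20 and 0.709 in the DP libraries and 0.309, 0.527 and 0.137 in LG. DP lay above LL and LG in every library, on the scaled and on the deposited values. Since POU2AF1 passed the filter on low values only through DP, its p-values are taken from the fit without that filter. The log2 fold change there was 0.99 in DP against LL (limma adjusted p = 0.115) and -1.19 in LG against DP (limma adjusted p = 0.0945), neither past the test. In the filtered fit without DP replicate 1 the log2 fold changes were 0.36 and -0.56, and without DP replicate 3 they were 1.40 and -1.60. LG and LL differed by -0.20 (limma adjusted p = 0.796), and by 0.11 without scaling.

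For CD79A, CD79B and MS4A1 the fit without the filter on low values called no difference in any comparison. MS4A1 differed by 0.79 in DP against LL (-0.53 to 2.11, limma adjusted p = 0.296) and by -0.87 in LG against DP (-2.19 to 0.46, limma adjusted p = 0.307). CD79B differed by 0.66 in DP against LL (-0.56 to 1.88, limma adjusted p = 0.339) and CD79A by 0.23 (-0.55 to 1.00, limma adjusted p = 0.604). These intervals leave room for sizeable differences in both directions. The log2 ratio of MS4A1 to PTPRC differed by -0.78 (DP against LL), -0.41 (LG against LL) and 0.37 (LG against DP), with two-sided exact permutation p of 0.3, 0.2 and 0.5 (adjusted 0.346, 0.25 and 0.536). JCHAIN set against MS4A1 differed by -3.16, -4.63 and -1.46 (exact permutation p of 0.1, 0.1 and 0.2, adjusted 0.15, 0.15 and 0.25). With a pseudocount of 0.1 on the deposited values, the MS4A1 to PTPRC difference in LG against LL was -1.44 and that in LG against DP turned to -0.62, so ratios on MS4A1 depend on how its near-zero values are handled.

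DP replicate 1 stood apart in the lymphocyte genes. It held the highest value of all 9 libraries in 4 of the 9 genes. Of the 5 that were tested it was highest in 1, POU2AF1, and it was highest in 12.8% of all 14701 genes tested. In MS4A1 it was 45.2 times the higher of the other DP libraries, in CD79B 34.3 times, in CD79A 6.44 times and in POU2AF1 5.15 times. PIGR, FCGRT, JCHAIN, MZB1 and TNFRSF17 were not highest there. Of the 22 other B cell genes 16 were highest in this library, among them PAX5, the factor that fixes B cell identity, at 1.22 scaled FPKM beside at most 0.0381 elsewhere. PAX5 was listed at 0 in every LL library.

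Markers of other cell types moved with DP replicate 1 too. It was highest of all libraries in 5 of 6 T cell genes, 6 of 6 leukocyte genes and 3 of 3 adipocyte genes, but in 3 of 16 plasma cell, 1 of 5 macrophage, 0 of 8 epithelial and 0 of 4 endothelial genes. The summed T cell genes were 5.91 to 6.56 scaled FPKM in the LL libraries, 19.8 to 59.8 in the DP libraries and 22.1 to 37.8 in LG. In LG against DP, 5 of the 6 T cell genes had a log2 fold change below 0. The exception was CD5, at 18.9, 4.61 and 8.45 scaled FPKM in LG and 4.68, 2.55 and 1.77 in DP. The summed leukocyte genes were 58.8 to 76.0 in the LL libraries, 103 to 213 in the DP libraries and 48.7 to 76.2 in LG. The 3 adipocyte genes summed to 17.0 in DP replicate 1 and to 0.867 to 17.0 over DP, beside at most 0.628 in LL and 0.495 in LG. The part of cell content in the results for these genes was not tested.

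**Figure D4:**
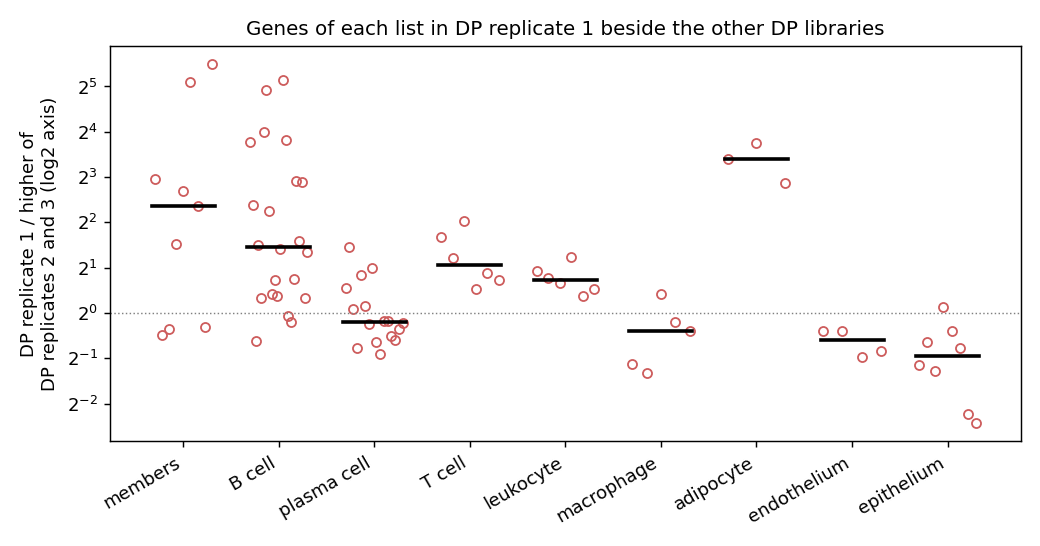
Value in DP replicate 1 divided by the higher of DP replicates 2 and 3, on a log2 axis, for the 9 genes and for the marker lists (each circle a gene, black lines the medians). The medians are 5.15 for the 9 genes, 2.76 for B cell, 2.08 for T cell and 10.6 for adipocyte genes, and 0.873 for plasma cell, 0.661 for endothelial and 0.519 for epithelial genes.

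The results that include DP were therefore also taken without this library. PIGR in DP against LL was then -8.63 and in LG against DP 4.71. JCHAIN was -2.56 and -2.14 (limma adjusted p = 0.0396 for LG against DP). MZB1 in LG against DP was -1.35 (limma adjusted p = 0.0297). Called in DP against LL were then 4 of the 5 genes, FCGRT and MZB1 beside PIGR and JCHAIN, and in LG against DP the count stayed at 3. All 14701 genes tested then split into 1979 higher and 1266 lower in DP against LL, and 987 and 1079 in LG against DP.

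Of the 22 other B cell genes, 12 were tested. In DP against LL, 4 were called higher and 0 lower, against 13.8% and 8.79% of all genes tested, with a median of 0.24. These were CIITA (1.86), the master regulator of class II histocompatibility genes, BANK1 (1.74), a scaffold of B cell receptor signalling, BTK (1.64), a kinase of that pathway that myeloid cells share, and CR2 (1.23), the complement receptor CD21. Their values without DP replicate 1 were 1.45, 1.36, 1.42 and 1.17, all still called. CIITA, BANK1 and BTK reached 0.5 FPKM in DP and LG only and so passed the filter through these stages. In the fit without the filter the 4 remained called in DP against LL, with limma adjusted p from 0.000334 (BTK) to 0.0193 (CR2). With quantile normalization the split was 3 higher and 1 lower. In LG against LL, BANK1 (1.07), CIITA (1.02) and FCRLA (2.94) were called higher and none lower, against 10.7% and 6.61% of all genes tested. The median was -0.16. Since these 3 passed the filter through stages where they are high, the fit without it was read too. It called 3 of 22 higher and 0 lower there, with a median of -0.01. In LG against DP, CR2 (-1.61) and BTK (-1.12) fell and FCRLA rose, beside 6.88% of all genes called lower and 6.37% higher. The median was -0.35, and BTK was at -0.90 and not called without DP replicate 1.

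FCRLA, an Fc receptor-like protein found inside B cells, was the gene of the list with the largest fold change in LG. It had 0.0603, 0.0723 and 0.0496 scaled FPKM in the LL libraries, 1.90, 0.0208 and 0.0625 in the DP libraries and 8.99, 3.87 and 10.2 in LG. It passed the filter on low values only through LG and DP replicate 1, so its p-values are those of the fit without the filter. It rose by 2.94 in LG against LL (limma adjusted p = 0.00153) and by 2.48 in LG against DP (limma adjusted p = 0.00516), while MS4A1, CD79A and CD79B stayed at or below 0.203 scaled FPKM in LG. VPREB3, also on the list, shared its values with its neighbour CHCHD10 and is no separate measurement.

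Signals that draw plasma cells into the gland and keep them alive were read from a list of 16 genes, of which 13 were tested. CCL28, the epithelial chemokine that attracts IgA plasma cells to the mammary gland, had 23.1, 34.2 and 11.3 scaled FPKM in the LL libraries, 9.70, 5.11 and 4.32 in the DP libraries and 15.0, 22.4 and 5.31 in LG. It fell by 1.63 in DP against LL (limma adjusted p = 0.0219), and LG overlapped both other stages. Without scaling the difference of CCL28 was -0.34 (limma adjusted p = 0.513). TNFSF13, the survival factor APRIL, had 14.6, 9.17 and 5.93 in the LL libraries, 1.41, 0.881 and 1.04 in the DP libraries and 3.83, 1.40 and 2.02 in LG. It fell by 2.30 in DP against LL (limma adjusted p = 0.000249) and by 1.66 in LG against LL (limma adjusted p = 0.00208), though in LG by 0.68 without scaling, under the size required. The mean of CCL28 was highest in LL on the scaled values (22.9) and highest in LG on the deposited ones (17.5 FPKM, beside 12.4 in LL).

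TNFSF13B, the B cell survival factor BAFF, ran the other way, at 0 to 0.221 scaled FPKM in the LL libraries, 1.85 to 4.36 in the DP libraries and 0.502 to 1.09 in LG. It rose by 1.83 in DP against LL (limma adjusted p = 0.000149) and fell by 1.15 in LG against DP (limma adjusted p = 0.00417). Between LL and DP, 6 of the 13 were called higher and 2 lower, against 13.8% and 8.79% of all genes tested. The median was 0.91. In the fit without the filter on low values, 5 of 15 were called higher and 2 lower, with a median of 0.53. That fit called 1940 of 20421 genes higher and 1279 lower. Without scaling the split was 9 and 1, beside 7979 and 369 of all 14701 genes tested. The count of 8 called genes fell to 5 without LL replicate 1 or without LL replicate 2. ITGB7, an integrin chain of gut-homing lymphocytes (1.98), and IL6, a cytokine that supports plasma cells (1.86), rose among them. CXCL13, the chemokine of B cell follicles, was at 23.4, 7.18 and 0.354 scaled FPKM in DP and at most 0.396 elsewhere. Its 2.45 in DP against LL and -2.36 in LG against DP were called with DP replicate 1 and not without it (1.49 and -1.41). CXCL13 and IL6 reached 0.5 FPKM in DP only and passed the filter through that stage, and ITGB7, TNFSF13B and TGFB1 through DP and LG. In the fit without the filter, IL6 remained called in DP against LL (limma adjusted p = 0.00579) and LG against DP (0.00623), CXCL13 in DP against LL (0.0485) but not in LG against DP (0.0787), and ITGB7 and TNFSF13B in DP against LL (0.00391 and 0.000497). In LG against DP, 0 were called higher and 5 lower, CXCL13, IL6 (-2.08), CXCL12 (-1.22), TNFSF13B and ITGA4 (-1.11), beside 6.37% and 6.88% of all genes tested. The median was -0.70, and without DP replicate 1 the count was 2. Between LL and LG, TNFSF13 fell and ITGB7 rose by 1.29, no other of the 13 was called, and the median was -0.20. The shares of all genes called there were 6.61% lower and 10.7% higher. In the fit without the filter, 1 of 15 was called higher and 1 lower there. Without scaling 4 were called higher and 0 lower there, beside 6698 and 345 of all 14701 genes tested, and with quantile normalization 0 and 1.

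Among themselves, the 9 genes formed no single pattern over the 9 libraries. Pearson's r on the scaled log2 values, given as a description over 9 libraries of which 3 share each stage, was 0.932 for JCHAIN and MZB1 and 0.504 for PIGR and JCHAIN. MS4A1 and CD79B had 0.996, CD79B and POU2AF1 0.941 and CD79A and CD79B 0.927, all pairs in which DP replicate 1 holds the highest value of both genes. FCGRT had -0.932 with JCHAIN and -0.711 with PIGR. The B cell surface genes thus shared their high value in DP replicate 1. Each LG library had less JCHAIN and MZB1 than every library of the other stages. PIGR and FCGRT each had an order of stages of its own.

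The genes whose pattern over the 9 libraries was most like that of PIGR were TSPAN1 (r = 0.99), LACTB2 (0.98), TMBIM6 (0.98), ITGA6 (0.98) and POLR2M (0.98). TSPAN1, a tetraspanin of epithelial membranes, averaged 162, 5.98 and 25.5 scaled FPKM in LL, DP and LG. The nearest to FCGRT were DCTPP1 (0.99), AXIN1 (0.99), DUS4L (0.98), METAP1D (0.98) and CCND1 (0.98), and CCND1, the cell cycle gene of cyclin D1, averaged 2.16, 8.19 and 13.6. The nearest to JCHAIN were PLS1 (0.99), PDE3B (0.98), GHR (0.98), NFKBIA (0.98) and MAPK13 (0.98), of which GHR, the growth hormone receptor, averaged 16.8, 7.02 and 1.65. These are the highest r of 14701 genes over 9 libraries and carry no test.

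Immunoglobulin heavy and light chain genes were not analysed here, so no level of the antibodies themselves stands beside the genes that carry or assemble them. None of the 9 genes shared its values with any of the up to 16 neighbours examined, with smallest residuals of 10.5% to 44.2% of the range. FCGRT lies 124 bases from RCN3, a gene on the same strand that had 1.75 to 1.98 FPKM as deposited in the LL libraries, 12.8 to 33.1 in the DP libraries and 5.68 to 8.10 in LG, so both genes were lowest in LL in every library.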

How the data were processed

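Mammary RNA of 9 goats was extracted with TRIzol, made into TruSeq libraries and read on a HiSeq, and the submitters' processing notes name FastQC, Trimmomatic, HISAT2, SAMtools and HTSeq. The authors deposited 1 value per gene and library, read here as FPKM since they have decimals and the totals are unequal. The table names neither unit nor genome build. The paper works on 42 libraries, of which these 9 were used. IDs of 23465 genes, all 9 members included, matched the RefSeq table of ARS1.2.

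Values were divided by median-ratio factors from 15905 genes and log2 was taken after adding 1. The 14701 genes that reached 0.5 FPKM in 3 or more libraries were tested in limma 3.58.1 (R 4.3.3, eBayes with trend), all 9 libraries in one fit, with Benjamini-Hochberg adjustment over all genes tested. Ratios within a library were tested by two-sided exact permutation in Python 3.11.15 with scipy 1.17.1. A gene was compared with 8 neighbours on either side and counted as linked when a straight line left at most 1% of its range. The code was tested on simulated data. Each library is a separate goat. Samples sharing a replicate number correlated by -0.11 to 0.20 in their deviations from the stage means, and different goats were used for each stage, so numbers do not pair libraries.

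The 9 genes and all lists were chosen with earlier results of these data known. Named are all 9 genes, up to 4 called genes of each list and comparison with the largest log2 fold change, and set genes of the B cell, plasma cell, homing and transport lists whatever their result. A result for such a gene that is not reported here still enters the list counts. Genes of the other marker lists are given as sums, apart from PTPRC, EPCAM, KRT18, ELF5 and CD5. Genes most like PIGR, FCGRT and JCHAIN are the 5 with the highest r and a symbol. RAB5A, ITGA4, TGFB1, CD5 and the neighbours ENAM, RUFY3 and RCN3 were chosen after their values were seen. Alternatives covered scaling, pseudocount (0.1), filter (none, or 2 FPKM), block, stages in the fit, trend, fold threshold and each library left out.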

Additional observations from a re-analysis of the deposited data

How the results depend on the processing

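Among the log2 fold changes of the 5 tested genes recomputed under each alternative, 192 kept their direction and their side of the threshold, 11 passed it newly, 2 no longer passed and 2 turned: without scaling MZB1 in DP against LL was 0.39 and POU2AF1 in LG against LL was 0.11. Both that no longer passed are JCHAIN in DP against LL. PIGR kept its direction and its call in every alternative, at -8.63 to -7.13 in DP against LL when 1 library was left out. Without scaling, the 5 genes split into 2 higher and 1 lower in DP against LL, 1 higher and 3 lower in LG against LL, and 1 higher and 3 lower in LG against DP, and all genes into 7979 higher and 369 lower, 6698 and 345, and 715 and 1577. Leaving out 1 library gave 2 to 4 of the 5 genes in DP against LL (4 without LL replicate 3 or DP replicate 1), 4 in LG against LL, and 3 to 4 in LG against DP. The called genes among all 14701 were then 3048 to 3454, 2435 to 2642 and 1775 to 2066 in these comparisons.

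For the lists, the adjusted p alone gave 7 B cell, 9 plasma cell and 9 transport genes in DP against LL, 8 B cell, 8 plasma cell, 6 homing and 4 transport genes in LG against LL, and 4 plasma cell and 7 transport genes in LG against DP. Quantile normalization gave 3 plasma cell genes in both DP and LG against LL, and 1 homing gene in LG against LL. A pseudocount of 0.1 gave 8 B cell, 6 homing and 3 transport genes in LG against LL, and no scaling 4 homing and 6 transport genes there. Leaving out 1 library gave 5 to 8 homing genes in DP against LL, 2 to 7 plasma cell, 1 to 3 homing (1 without LG replicate 2) and 1 to 2 transport genes (2 without LL replicate 3 or LG replicate 2) in LG against LL, and 2 to 5 homing genes in LG against DP. The replicate block gave 2, 4 and 3 called genes of the 5 in the 3 comparisons and changed no call of theirs. For values that turned or moved, the cause was not tested beyond the setting itself. The stricter filter removed POU2AF1. Depth is not in the table, so no limit from counting was set on the low B cell genes.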

Other observations

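The ratio of JCHAIN to MZB1, both genes of antibody-secreting cells, was picked with the values in view and is given without a test. It was 67.6, 57.2 and 56.5 in the LL goats, 12.7, 46.8 and 18.4 in the DP goats and 41.1, 50.0 and 49.3 in LG. The LG values lay below the LL values and the DP values spread more widely. The ratio of PIGR to JCHAIN, likewise chosen afterwards, was 1.19 to 3.91 in the LL goats, 0.0114 to 0.114 in the DP goats and 2.11 to 4.39 in LG. In the dry gland JCHAIN exceeded PIGR in each library, and in the other stages PIGR exceeded JCHAIN in each library.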
